A study of Rattus norvegicus with 12 samples.

Results

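The genes described here copy the genome and mark cells in S phase. The 39 listed genes were chosen by their known roles in DNA replication, with earlier results of these data known. Of these, 34 were measured among the 14506 genes that the array annotation named. A gene counted as measured where a probe set carried its symbol and no other, and the probe set with the highest mean was used where there were several. Mcm3, Mcm4, Pole2, E2f2 and Chaf1a had no such probe set and are not described. RNA came from the whole ganglionic eminences, medial and lateral together, of rat embryos at embryonic day 14, with 1 embryo on each Affymetrix rat Gene ST array. The 6 homozygous embryos carried the BACHD transgene, a bacterial artificial chromosome with full-length human huntingtin and 96 CAG repeats, on both alleles, and the 6 others were wild type. The embryos were offspring of 3 dams, timed and dissected together, and the meninges were removed. The promoter that drives the transgene, and the dam and sex of each embryo, were not given in the sources used here. With 3 dams for 6 embryos in each group, some embryos of each group must be littermates. The fits hold no term for the dam, so the tests measure only the spread between embryos. The series set out to find early transcriptional differences between these genotypes.

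Replication starts at origins, where the origin recognition complex, Cdc6 and Cdt1 load the Mcm2 to Mcm7 helicase in G1. Cyclin E activity, Mcm10, Cdc45 and the GINS complex then turn the loaded helicase into a moving one, and polymerases, the sliding clamp Pcna and its loader copy the strands. Many of these genes are transcribed by E2F factors as cells leave G1. In the embryonic eminence, S phase takes place in the dividing cells of the ventricular and subventricular zones, while young neurons have left the cycle. In a bulk sample, fewer dividing cells and less RNA per dividing cell cannot be told apart.

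All values are log2 intensities, so a difference of 1 is a doubling, and differences are homozygous minus wild type. Probe sets differ in how well they bind, so levels are compared between embryos and not between genes. The array medians lay between 7.67 and 7.76 and were higher in most homozygous arrays. The mean of every measured subpallial gene on the list used (10 of 10, among them Dlx1, Gad1 and Nkx2-1) and of all 13 measured progenitor genes lay above every array median. So did that of 33 of the 34 replication genes, the exception being Slbp, but that of none of 10 choroid plexus and roof plate genes. Wild type 1 and 2 stood apart from most other arrays: they held the lowest value of 15 of the 34 members. The mean of their dimmest probe sets minus that of their brightest was -5.20 and -5.19, against -5.17 (homozygous 1) to -5.06 in the other arrays. Without both the number of probe sets at an adjusted p under 0.05 in limma went from 124 to 582. That number was 70 without wild type 1 alone, 86 without wild type 2 alone and 200 without wild type 3 alone. It was 59 without homozygous 6 alone and from 4 to 20 without any other 1 array. Without wild type 1 and 2, 7 of the 34 members were higher and 2 lower at an unadjusted p under 0.05 (20.6% and 5.88%), beside 11.2% and 6.19% of all genes, and the main results are given with and without them. Mcm7, Pcna, Rrm2, Ccne2, Gins3, Rfc3 and Rpa2 changed sign without them, all from differences of 0.05 or less in size. Htt, read by 1 probe set, had log2 intensities of 9.77, 9.98, 10.07, 10.05, 10.02 and 9.90 in wild type 1 to 6 and 10.34, 10.23, 10.16, 10.17, 10.27 and 10.40 in homozygous 1 to 6. Whether this probe set reads the human transgene, the rat gene or both is not given in the sources used here, so it is a limited check of the labels. The groups did not overlap, at a difference of 0.30 ± 0.0556 (SE) and an adjusted p of 0.0408 in limma, although this p was above 0.05 in 16 of 24 other settings and ranged from 0.0210 to 0.130.

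No replication gene passed an adjusted p of 0.05 over all probe sets in limma, where 0.424% of probe sets and 0.469% of genes did. At an unadjusted p under 0.05, 9 of the 34 members (26.5%) were higher in homozygous embryos and 0 lower. Over all genes the shares were 9.18% higher and 5.93% lower. Among genes no dimmer than the dimmest member they were 9.61% higher and 9.06% lower. Since the members were chosen with earlier results known, their counts and shares are given as a description. The 9 members were Rfc5, Chaf1b, Gins2, Prim1, Tk1, Orc1, Mcm2, Uhrf1 and Pola1, with differences from 0.07 to 0.18, or 1.05-fold to 1.13-fold. The first 7 of these kept an unadjusted p under 0.05 and their direction in each of 24 other settings tried. Over the whole list the direction was close to that of all genes: 21 of 34 members (61.8%) lay above 0, beside 61.4% of all genes, and the median difference was 0.03, beside 0.02 over all genes. In 3 members (8.82%), Rfc5, Chaf1b and Orc1, the groups did not overlap, all with the homozygous values on top, whereas 1.25% of all genes did so in this direction and 0.944% in the other. The median SE of the members was 0.0357, against 0.0520 over all genes, of which 81.3% had a larger SE, and 0.0422 over genes no dimmer than the dimmest member.

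The scaling of the arrays bore on how many members stood higher or lower. After each array was centred on its median, the same 7 members were higher at an unadjusted p under 0.05, and Mcm5, Mcm6, Tyms, Slbp and Orc6 were lower. That is 20.6% of members higher and 14.7% lower, beside 3.31% and 13.5% of all genes under the same centring. The members' median was then -0.01, beside -0.02 over all genes. No member's groups stayed apart without overlap after centring, so the count of 3 became 0. The share of all genes without overlap under this centring is not given here, so the drop has nothing to be set against. Quantile normalization gave 7 higher and 1 lower, and cyclic loess 8 and 1, the lower gene being Slbp in both. The shares of all genes were 5.90% higher and 8.64% lower after quantile normalization, with 6.11% and 8.69% under cyclic loess. Centring lowers every difference by the same amount, and the differences of Mcm7, Pcna, Rrm1, Rrm2 and Gins3, all 0.03 or less, turned below 0 with it; that of Gins3, at 0.00, also changed sign under cyclic loess.

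**Figure D1:**
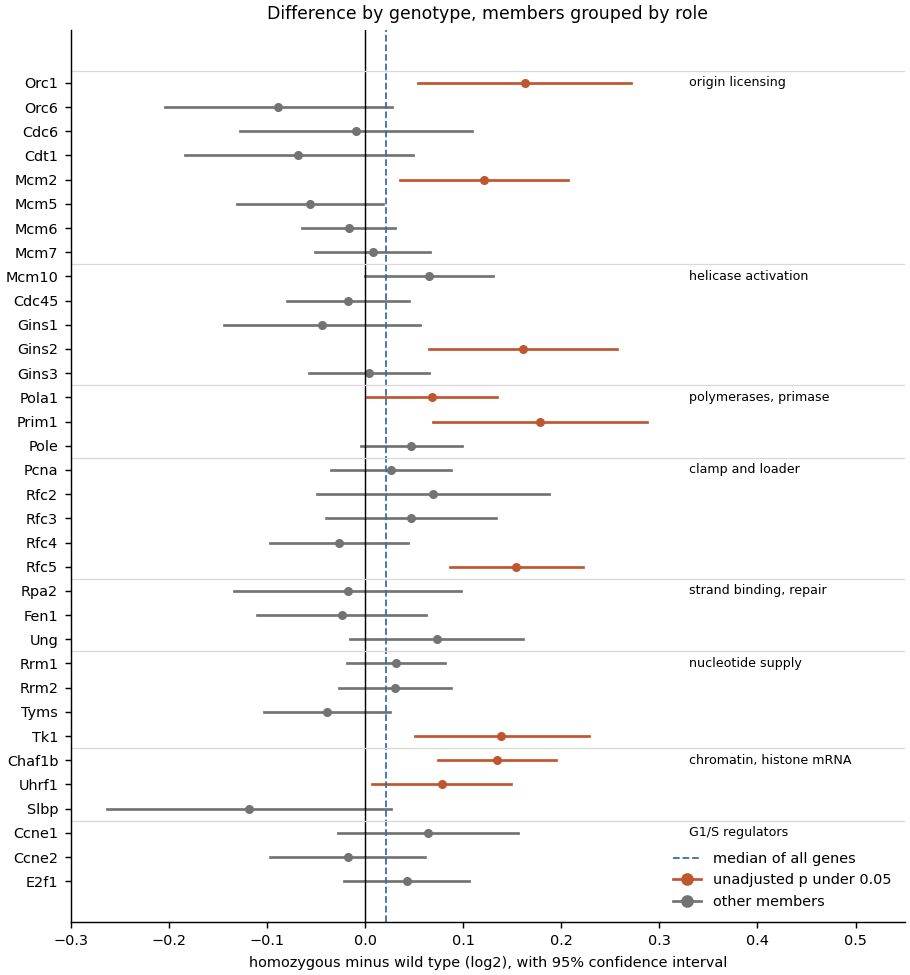
Difference in log2 intensity, homozygous minus wild type, for the 34 measured replication genes in order of role, with 95% confidence intervals from limma; orange marks an unadjusted p under 0.05 and the dashed line the median of all genes (0.02). The 9 orange genes all lie above 0, and the largest differences among the others are that of Slbp, at -0.12, and that of Orc6, at -0.09.

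Since E2F sites are a known feature of replication gene promoters, the window from 250 bases before to 50 bases after each RefSeq start (assembly GRCr8) was searched for them. The motif was any of TTTCCCGC, TTTCGCGC, TTTGCCGC and TTTGGCGC on either strand, and matches may overlap each other. Of 32 members in the promoter table, 17 (53.1%) held at least 1 match at any listed start, against 2.37% of 27457 genes. The share was 33.3% of 60 related replication genes and 4.17% of 24 mitosis genes. A CCAAT box, searched as CCAAT on either strand, lay in 20 of the 32 members (62.5%), in 39.6% of all genes and in 75.0% of the mitosis genes. The promoters of Mcm2, Uhrf1 and Pola1 are shown because these are the 3 members with the smallest p among those with an E2F match; capitals mark E2F matches and CCAAT boxes, and each sequence runs with its gene. That of Mcm2 lies on the minus strand at chr4:122918045-122918344, that of Uhrf1, the third of 3 listed starts, on the plus strand at chr9:1222936-1223235, and that of Pola1 on the minus strand at chrX:62342306-62342605.
Mcm2: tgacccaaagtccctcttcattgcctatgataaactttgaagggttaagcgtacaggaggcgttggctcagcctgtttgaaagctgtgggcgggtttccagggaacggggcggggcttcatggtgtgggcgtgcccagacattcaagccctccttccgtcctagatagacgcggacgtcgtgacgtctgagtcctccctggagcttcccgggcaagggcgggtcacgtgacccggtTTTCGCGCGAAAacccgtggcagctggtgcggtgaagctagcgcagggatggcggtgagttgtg
Uhrf1: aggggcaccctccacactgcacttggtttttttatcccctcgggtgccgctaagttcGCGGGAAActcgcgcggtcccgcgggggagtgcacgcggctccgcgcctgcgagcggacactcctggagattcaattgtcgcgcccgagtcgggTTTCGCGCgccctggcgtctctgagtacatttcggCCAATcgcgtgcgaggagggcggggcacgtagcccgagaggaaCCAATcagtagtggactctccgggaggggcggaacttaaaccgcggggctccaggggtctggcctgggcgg
Pola1: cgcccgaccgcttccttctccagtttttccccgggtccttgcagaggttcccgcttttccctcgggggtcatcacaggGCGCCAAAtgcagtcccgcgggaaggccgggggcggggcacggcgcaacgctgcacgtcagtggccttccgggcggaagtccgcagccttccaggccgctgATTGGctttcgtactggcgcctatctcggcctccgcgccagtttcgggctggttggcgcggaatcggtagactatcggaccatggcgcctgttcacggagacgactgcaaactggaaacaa
In Mcm2, matches on both strands overlap just before the start, at -14 and -10 counted from it, and there is no CCAAT box. Uhrf1 has E2F matches at -193 and -99 and CCAAT boxes at -64 and -21. Pola1 has 1 of each, at -172 and -71. The 15 measured members with a match had a median difference of 0.00 with 3 at an unadjusted p under 0.05, and the 14 without a median of 0.06 with 5. Rfc5, Chaf1b, Gins2, Prim1, Tk1 and Orc1, the members with the smallest p, had no match or no entry in the table. These are letters found in a window, not binding sites, and no match says only that these letters are not there.

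Among the 8 measured genes of origin licensing, 3 were above 0 and 5 below, with a median of -0.01. Orc1, the ATPase subunit of the origin recognition complex, had log2 intensities of 8.50, 8.60, 8.78, 8.79, 8.80 and 8.69 in wild type 1 to 6. In homozygous 1 to 6 it read 8.85, 8.82, 8.83, 8.92, 8.89 and 8.85. Every homozygous value was above every wild-type value, with wild type 1 and 2 the lowest, and the difference was 0.16 ± 0.0508 (SE; unadjusted p = 0.00633, adjusted p = 0.167 in limma). Without wild type 1 and 2 the difference was 0.09 and the groups still did not overlap. Orc6, the smallest subunit, ran the other way, with 9.40, 9.38, 9.51, 9.54, 9.54 and 9.65 in wild type and 9.44, 9.27, 9.44, 9.43, 9.57 and 9.36 in homozygous embryos. Of the 6 homozygous values, 5 were below the wild-type mean but 2 below its lowest value, and the difference of -0.09 ± 0.0541 did not pass (unadjusted p = 0.124, adjusted p = 0.449). Without wild type 1 and 2, which had the lowest wild-type values, it was -0.15 (unadjusted p = 0.0147, adjusted p = 0.182 in limma).

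The loaders Cdc6 and Cdt1 differed by -0.01 ± 0.0553 and -0.07 ± 0.0542. Cdc6 was lowest in wild type 1 and 2 (9.95 and 9.93, against 10.16 to 10.23 in the other wild-type embryos), and without them its difference was -0.10 (unadjusted p = 0.0138, adjusted p = 0.176 in limma). The helicase subunits had differences of either sign. The wild-type mean of Mcm2 was 11.64 ± 0.0948 and the homozygous mean 11.76 ± 0.0452 (SD over 6 embryos each), with 4 homozygous values above every wild-type value. Its difference of 0.12 ± 0.0399 (adjusted p = 0.185 in limma) was 0.06 without wild type 1 and 2, both at 11.52. Mcm5, in contrast, had log2 intensities of 10.84, 10.82, 10.72, 10.85, 10.81 and 10.69 in wild type and 10.70, 10.74, 10.66, 10.79, 10.79 and 10.71 in homozygous embryos. Those groups overlapped broadly, at a difference of -0.06 ± 0.0347 (adjusted p = 0.451). Mcm6 and Mcm7 lay at -0.02 ± 0.0223 and 0.01 ± 0.0273, with 95% confidence intervals of -0.0646 to 0.0308 and -0.0508 to 0.0664. On the deposited scaling these 2 were measured closely enough to leave room only for small differences. With centred arrays Mcm6 was at -0.05 (unadjusted p = 0.0316 in limma) and Mcm7 at -0.03. Mcm7 lay at -0.03 and Mcm6 at -0.02 without wild type 1 and 2.

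Of the 5 genes that activate the helicase, Gins2 stood out. This subunit of the GINS complex read 8.81, 8.89, 9.03, 8.93, 8.90 and 8.78 in wild type and 9.0, 9.08, 9.13, 9.09, 9.01 and 8.98 in homozygous embryos. All homozygous values were above the wild-type mean and 3 above the highest wild-type value, that of wild type 3. The difference was 0.16 ± 0.0447 (unadjusted p = 0.00280, adjusted p = 0.125 in limma), and 0.14 without wild type 1 and 2. The partner subunits Gins1 and Gins3 lay at -0.04 ± 0.0467 and 0.00 ± 0.0286. Cdc45, which rides with the helicase, differed by -0.02 ± 0.0292 and Mcm10, which helps to activate it, by 0.06 ± 0.0306 (unadjusted p = 0.0517).

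All 3 measured polymerase genes were above 0. Prim1, the catalytic primase subunit that lays the RNA primer, had the largest difference of all members, with 11.75, 11.61, 11.45, 11.49, 11.46 and 11.59 in wild type and 11.70, 11.73, 11.83, 11.81, 11.73 and 11.62 in homozygous embryos. Wild type 1 had the third highest value of all 12, and otherwise every homozygous value lay above every wild-type value. The difference was 0.18 ± 0.0506 (unadjusted p = 0.00336, adjusted p = 0.134 in limma). Without wild type 1 and 2 it was 0.24 ± 0.0406, with no overlap and an adjusted p of 0.0139; over the 24 other settings the adjusted p ran from 0.0139 to 0.284. Pola1, the X-linked catalytic subunit of the same polymerase alpha-primase complex, differed by 0.07 ± 0.0308 (unadjusted p = 0.0449, adjusted p = 0.321), and by 0.04 without wild type 1 and 2. Pole, the catalytic subunit of the leading-strand polymerase, differed by 0.05 ± 0.0240 (unadjusted p = 0.0686).

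For the sliding clamp itself the difference was within its spread: the wild-type mean of Pcna was 12.15 ± 0.0582 and the homozygous mean 12.18 ± 0.0367 (SD over 6 embryos each), with a 95% confidence interval of the difference from -0.0346 to 0.0876, and the difference was -0.01 without wild type 1 and 2. Of the clamp loader, Rfc5 had the smallest p of all members. It read 10.16, 10.20, 10.17, 10.17, 10.08 and 10.11 in wild type 1 to 6. In homozygous 1 to 6 it read 10.22, 10.34, 10.35, 10.35, 10.26 and 10.31. The groups did not overlap, though homozygous 1 was close to wild type 2, and the difference was 0.15 ± 0.0318, or 1.11-fold (unadjusted p = 0.000249, adjusted p = 0.0523 in limma). Over the 24 other settings its adjusted p ran from 0.0200 to 0.137 and was under 0.05 in 4, among them that without wild type 1 and 2 (0.0272). The loader's other small subunits lay at 0.07 ± 0.0550 (Rfc2), 0.05 ± 0.0404 (Rfc3) and -0.03 ± 0.0328 (Rfc4). These were 0.12, 0.00 and -0.01 without wild type 1 and 2.

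Of the 3 genes of chromatin replication, Chaf1b and Uhrf1 lay above 0 and Slbp below. Chaf1b, a subunit of the chromatin assembly factor that places histones behind the fork, had 10.56, 10.55, 10.63, 10.58, 10.64 and 10.57 in wild type and 10.80, 10.72, 10.73, 10.70, 10.72 and 10.66 in homozygous embryos. The highest value was that of homozygous 1, and the gap between the groups was between wild type 5 and homozygous 6. The difference was 0.13 ± 0.0282, or 1.10-fold (unadjusted p = 0.000292, adjusted p = 0.0546 in limma), and 0.12 without wild type 1 and 2, with an adjusted p of 0.0573. Its adjusted p was under 0.05 in 3 of the 24 other settings and ran from 0.0314 to 0.174. Uhrf1, which brings maintenance methylation to new DNA, differed by 0.08 ± 0.0331 (unadjusted p = 0.0331, adjusted p = 0.292) and by 0.04 without wild type 1 and 2.

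Slbp, which binds the stem-loop of replication-dependent histone mRNAs, was the lowest member by difference. Its log2 intensities were 7.40, 7.59, 7.70, 7.48, 7.71 and 7.48 in wild type and 7.58, 7.26, 7.42, 7.54, 7.35 and 7.48 in homozygous embryos. The groups overlapped, 5 of 6 homozygous values were below the wild-type mean, and the difference of -0.12 ± 0.0674 did not pass (unadjusted p = 0.100, adjusted p = 0.418 in limma). Its probe set was dim and its spread wide, so its 95% confidence interval ran from -0.263 to 0.0259. The difference was -0.15 when wild type 1 and 2 were left out.

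**Figure D2:**
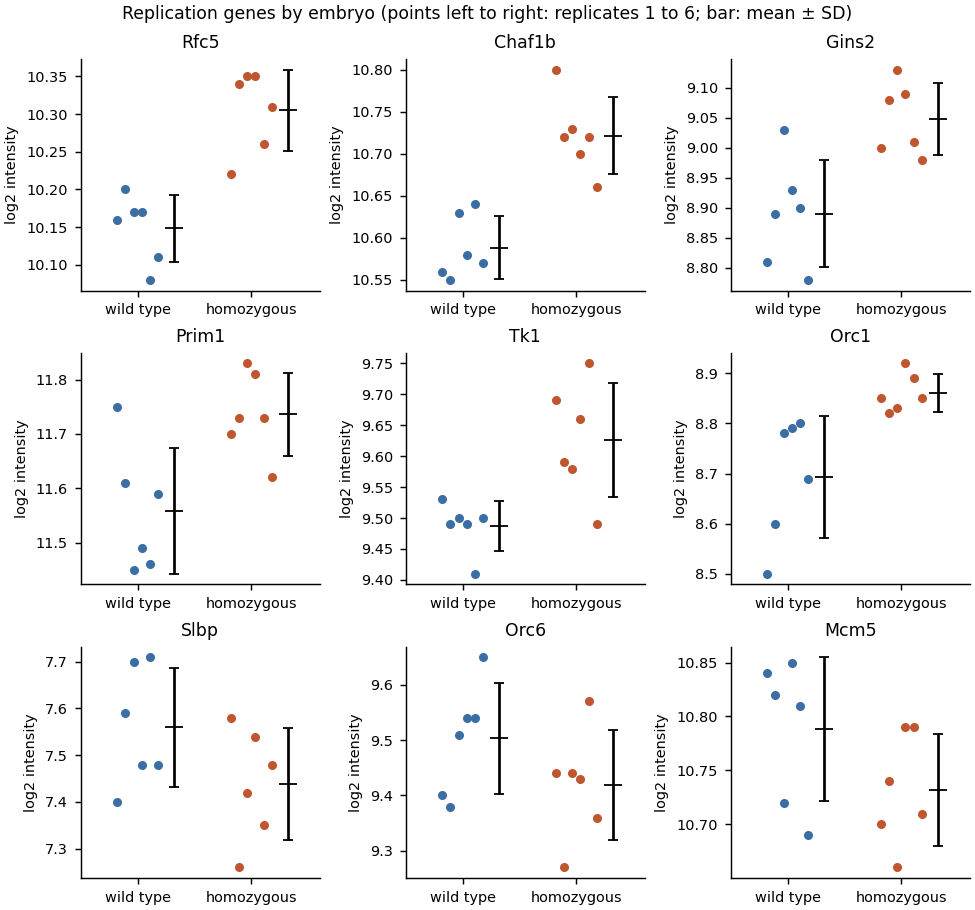
Log2 intensity by embryo for the 6 members above 0 (Rfc5 to Orc1) and the 3 below 0 (Slbp, Orc6, Mcm5) with the smallest p, with replicates 1 to 6 from left to right and bars of mean ± SD; each panel has its own axis, which does not start at 0. In Rfc5, Chaf1b and Orc1 the groups do not overlap, whereas those of Slbp, Orc6 and Mcm5 overlap widely.

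For nucleotide supply, 1 of 4 genes met the unadjusted threshold. Tk1, the thymidine kinase of dividing cells, read 9.53, 9.49, 9.50, 9.49, 9.41 and 9.50 in wild type and 9.69, 9.59, 9.58, 9.66, 9.75 and 9.49 in homozygous embryos. Homozygous 6 lay within the wild-type range and the other 5 above it, at a difference of 0.14 ± 0.0412 (unadjusted p = 0.00443, adjusted p = 0.148 in limma), and 0.15 without wild type 1 and 2. Tyms, which makes thymidylate by the other route, lay at -0.04 ± 0.0297. Rrm2, the regulated subunit of ribonucleotide reductase, had 12.63, 12.62, 12.71, 12.70, 12.73 and 12.74 in wild type and 12.70, 12.68, 12.75, 12.76, 12.75 and 12.68 in homozygous embryos. These overlapped, at a difference of 0.03 ± 0.0267 (adjusted p = 0.601), and a further Rrm2 probe set gave 0.02 ± 0.0269. The brighter set gave -0.002 when wild type 1 and 2 were left out. Rrm1, the large subunit, differed by 0.03 ± 0.0232 on the brighter of 2 probe sets and by 0.08 ± 0.0407 on the dimmer one.

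The strand-handling and regulatory genes did not meet the threshold. The single-strand binding subunit Rpa2 lay at -0.02 ± 0.0542, the flap nuclease Fen1 at -0.02 ± 0.0401, and Ung, which removes uracil from DNA, at 0.07 ± 0.0412. Of the genes that start S phase, Ccne1 differed by 0.06 ± 0.0429, Ccne2 by -0.02 ± 0.0368 and E2f1 by 0.04 ± 0.0296. Rpa2 was at 0.04 and Ccne2 at 0.01 when wild type 1 and 2 were left out.

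Among replication genes outside the list the balance of directions depended on the scaling. Of 63 measured related genes, 9 were higher and 8 lower at an unadjusted p under 0.05 (14.3% and 12.7%, beside 9.18% and 5.93% of all genes), and the median was -0.01. With centred arrays 2 were higher and 17 lower (3.17% and 27.0%, beside 3.31% and 13.5% of all genes), with a median of -0.05. Without wild type 1 and 2 the counts were 7 and 10 (11.1% and 15.9%, beside 11.2% and 6.19% of all genes). Among 25 further genes of the machinery, 6 were higher and 4 lower; Rpa1, the large single-strand binding subunit, differed by 0.14 ± 0.0335 (adjusted p = 0.0919 in limma) and Gins4, the remaining GINS subunit, by 0.19 ± 0.0519 (adjusted p = 0.123). Gins4 was at 0.26 without wild type 1 and 2, with an adjusted p of 0.00571 in limma. Those 2 arrays held its highest wild-type values, 9.97 and 10.06, beside 9.99 to 10.09 in homozygous embryos. Without wild type 1 alone the adjusted p was 0.117, and with centred arrays Gins4 was at 0.15 (adjusted p = 0.219 in limma). The 2 machinery genes next by p were lower in the deposited values. Rpa3, on the brighter of 2 probe sets, differed by -0.21 ± 0.0625 (adjusted p = 0.152 in limma). Tipin differed by -0.15 ± 0.0468 (adjusted p = 0.177 in limma). Of 10 genes of nucleotide supply, 1 was higher and 4 lower. Dck, which salvages deoxycytidine, fell by 0.17 on the log2 scale (SE 0.0329) at an adjusted p of 0.0457 in limma, with no overlap of the groups. That call was lost in 15 of 24 other settings, where the adjusted p reached 0.122. It held without wild type 3 (0.0373) and without wild type 1 and 2 together (0.0420), and was lost without any other 1 array, at adjusted p-values from 0.0613 to 0.122. Dtymk, the thymidylate kinase, differed by -0.10 ± 0.0282 (adjusted p = 0.120), also with no overlap, and by -0.13 without wild type 1 and 2 (adjusted p = 0.0391 in limma). Of 11 genes of chromatin replication 1 was higher and 0 lower. Without wild type 1 and 2 the counts were 1 and 4 (9.09% and 36.4%, beside 11.2% and 6.19% of all genes). In the deposited values of all arrays the maintenance methyltransferase Dnmt1 was at 0.06 ± 0.0270 and the deubiquitinase Usp1 at -0.05 ± 0.0318. Of 17 further regulators of the start of S phase 1 was higher and 0 lower, with E2f3 at 0.09 ± 0.0335 and the Cdk inhibitor Cdkn1c at -0.22 ± 0.112. Cdkn1c was highest in wild type 1 and 2, at 10.04 and 9.71, and its difference was -0.12 without wild type 1 and -0.05 without both.

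**Figure D3:**
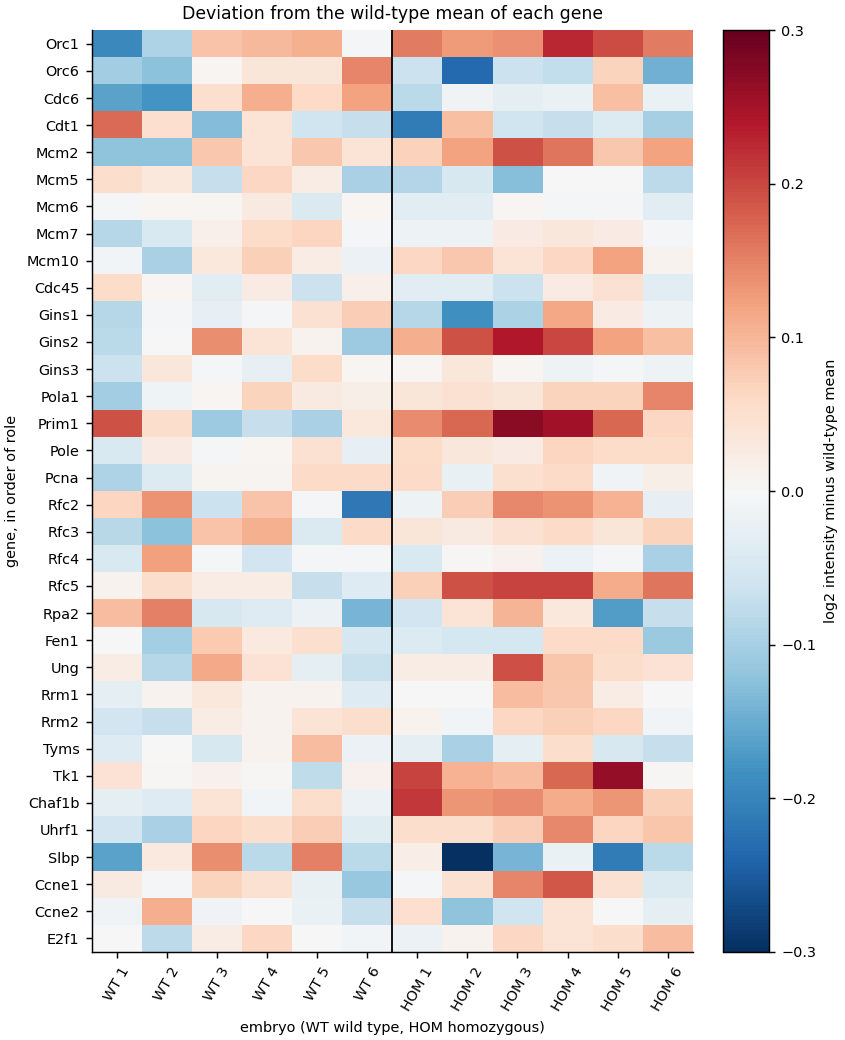
Log2 intensity of each replication gene in each of the 12 embryos minus its wild-type mean, with genes in order of role and wild-type embryos left of the line. Rows such as Rfc5, Chaf1b, Orc1, Gins2 and Prim1 are red across most homozygous embryos, and wild type 1 and 2 are blue in Orc1, Cdc6 and Mcm2 but red in Prim1 and Rpa2.

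By embryo, the mean deviation of the 34 members from their wild-type means covered -0.027 (wild type 1) to 0.026 (wild type 4), against 0.006 (homozygous 6) to 0.074 (homozygous 4). Homozygous 3, 4 and 5 were above every wild-type embryo, and homozygous 1, 2 and 6 within their range. The same 3 arrays had the highest array medians and the highest means over all genes (0.034, 0.035 and 0.042). After each array was centred on its median, the members' means covered -0.034 to 0.020 in wild type, against -0.021 to 0.021 in homozygous embryos, and overlapped almost throughout. The centred means over all genes were -0.016 to 0.019 in wild type and lower in every homozygous embryo, at -0.025 to -0.017. Homozygous 3 held the highest value of 7 members and homozygous 4 of 6, and a homozygous embryo held the highest value of 19 of 34.

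**Figure D4:**
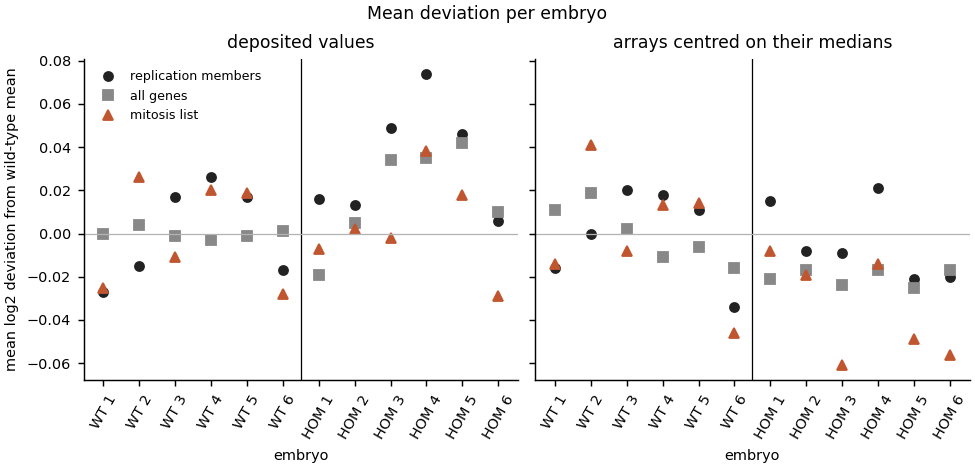
Mean deviation from the wild-type mean, per embryo, of the 34 replication genes (circles), all genes (squares) and the mitosis list (triangles), for the deposited values on the left and for arrays centred on their medians on the right. On the left homozygous 3, 4 and 5 lie highest together with all genes, and on the right the replication means of the genotypes overlap almost throughout.

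Covariation among the members was weak. After the group means were removed, Pearson's r over the 12 embryos had a median of 0.15 over the 561 pairs of members, with 61.9% of pairs above 0 and 18% above 0.5. Over all pairs of the 14506 genes the median was 0.03, with 52.3% above 0 and 11.8% above 0.5, and 38.9% of those pairs had an r at or above the members' median. The mitosis list had a median of 0.16, the related replication genes 0.09 and the neuron list 0.40. All pairs share the same 12 arrays, so an array that stands apart moves many of them at once. The members' median was 0.15 without wild type 1 and 2 too, but 0.11 within wild type and 0.23 within homozygous embryos alone, and 0.09 with centred arrays. The median over all gene pairs is not given here for these settings, so the shifts have nothing to be set against. The first principal component of the members held 38.3% of their variance within groups.

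The members most like the others were Mcm7, Orc1, Uhrf1 and Rrm1, with mean correlations of 0.30, 0.29, 0.29 and 0.28 to the other members. Rfc5 and Prim1, which had the smallest p and the largest difference, were not among them, at 0.01 and -0.12, and Cdt1 was lowest at -0.15. The closest pair was Mcm7 and Orc1, with r = 0.93 and Spearman's rho = 0.89 over 12 embryos, 0.96 within wild type and 0.68 within homozygous embryos. Without wild type 1 and 2, which were low for both genes, r was 0.74. Uhrf1 and Orc1 followed with r = 0.85 (rho = 0.80; 0.88 without those arrays) and Rrm2 with Orc6 at 0.84 (rho = 0.78; 0.73 without them). The most opposed pair was Cdt1 and Slbp, with r = -0.81 (rho = -0.73), and -0.80 without wild type 1 and 2. These pairs are the extremes of 561 and are given as a description.

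Genes of 1 complex are listed for comparison. Pairs within a complex were picked after their values were seen; of 19 such pairs 12 had an r above 0, and their median was 0.09. The range was from 0.80 for Mcm2 and Mcm7, which was 0.30 without wild type 1 and 2, to -0.79 for Pola1 and Prim1. The latter, partners in polymerase alpha-primase, were opposed within wild type (-0.84) and within homozygous embryos (-0.68), and at -0.50 without wild type 1 and 2. Orc1 and Orc6 had an r of 0.55, which was 0.08 without wild type 1 and 2, and Rrm1 and Rrm2 of 0.41, which was 0.54 without them. The GINS pairs lay between -0.15 and 0.22, and Gins1 with Gins3 at 0.77 within wild type but -0.87 within homozygous embryos.

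**Figure D5:**
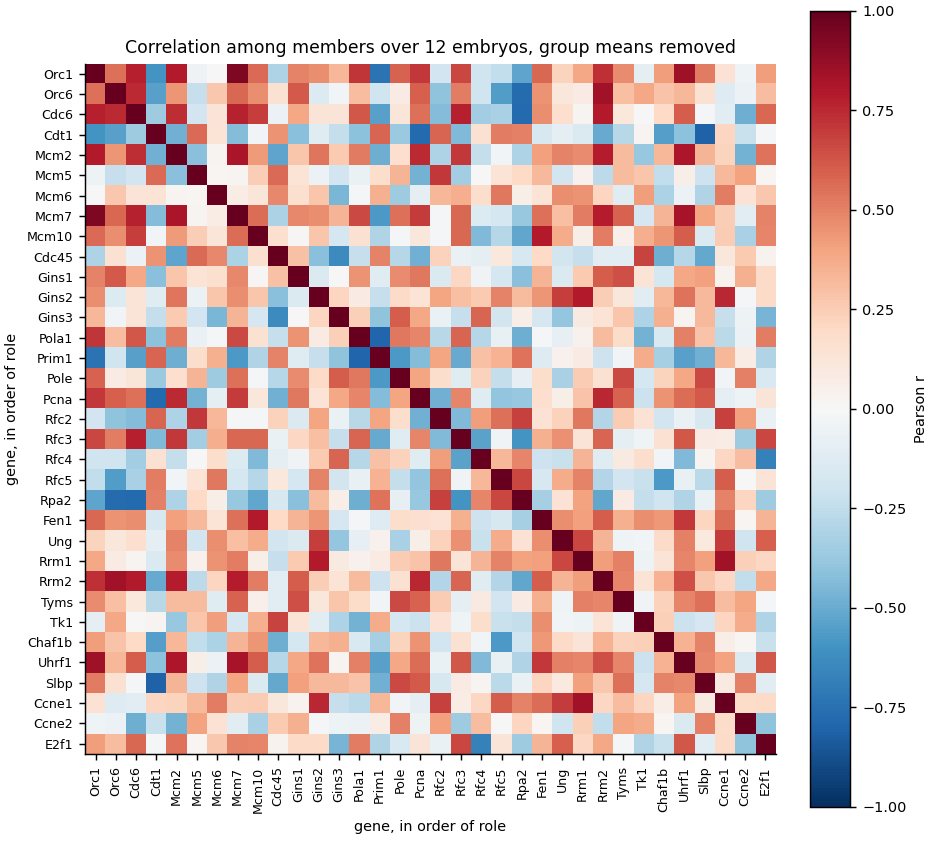
Pearson's r between replication genes over the 12 embryos after removal of the group means, with genes in order of role. Red is positive and blue negative; Orc1, Mcm2, Mcm7, Rrm2 and Uhrf1 share a red block pattern, and Cdt1, Prim1 and Rpa2 are mostly blue against them.

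The members' mean per embryo went along with markers of dividing cells, and also with the general level of the arrays. With group means removed, r over 12 embryos was 0.69 with the mitosis list (rho = 0.71), 0.66 with the progenitor list (rho = 0.58) and -0.44 with the neuron list (rho = -0.31). Without wild type 4 and homozygous 4, the embryos farthest from the median, these were 0.50, 0.45 and -0.38, and without wild type 1 and 2 they were 0.84, 0.56 and -0.22. The members' mean also went along with the array median, at r = 0.63 (rho = 0.53). With the mean over all genes r was 0.54 (rho = 0.41), and 0.65 without wild type 1 and 2. That relation was -0.72 within wild type and 0.77 within homozygous embryos. The means over all genes covered only -0.003 to 0.004 in wild type, against -0.019 to 0.042 in homozygous embryos. The wild-type value thus rests on very small differences. How much of the relation to the marker lists is shared with all genes was not tested. No p is given, since the lists were drawn up with earlier results known.

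The cell lists held genes of either direction in the deposited values. At an unadjusted p under 0.05, 9.18% of all genes were higher and 5.93% lower in these values. Of 25 mitosis genes, 2 were higher and 2 lower by that rule (8.0% each). The list's mean level was 10.68 to 10.73 in wild type, against 10.68 to 10.75 in homozygous embryos. With centred arrays 0 mitosis genes were higher and 7 lower (28.0%), beside 3.31% and 13.5% of all genes. Mad2l1, a spindle checkpoint gene, was the 1 gene of this list past an adjusted p of 0.05 in limma, and it was lower (-0.22 ± 0.0295, adjusted p = 0.0164). Of 13 progenitor genes 1 was higher and 4 lower (7.69% and 30.8%), with mean levels of 10.87 to 10.97 and 10.84 to 10.90. The progenitor gene Id4 was past the adjusted threshold (-0.20 ± 0.0346, adjusted p = 0.0303 in limma). Of 19 neuron genes 3 were higher and 4 lower (15.8% and 21.1%), at 11.41 to 11.52 and 11.36 to 11.49. The neurofilament gene Nefl was past the adjusted threshold (-0.42 ± 0.0653, adjusted p = 0.0273 in limma). For tissue outside the eminence, 4 of 7 pallial genes were lower (57.1%) and 0 higher, at 8.85 to 9.41 in wild type and 8.93 to 9.09 in homozygous embryos. With centred arrays the counts were 1 higher and 5 lower for progenitors, 0 and 7 for neurons and 0 and 4 for pallial genes, beside 3.31% and 13.5% of all genes. Of 6 blood genes 2 were lower and 0 higher, with mean levels of 9.61 to 10.27 and 9.50 to 9.71. For vessels 2 of 11 were higher, for microglia 1 of 8 lower, for choroid plexus 2 of 10 higher and for meninges 0 of 7 either way. The part of these tissues in the replication gene differences was not tested.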

How the data were processed

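The authors deposited log2 intensities, 1 per probe set and array, for 29214 probe sets; the log2 scale was read from the values. Partek 6.4 and RMA are named in the submitters' processing notes, without order or settings. Of the probe sets, 15310 had 1 annotated gene, 323 several and 13581 none given here. The number of arrays (6 and 6) limits the precision.

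The whole table was fitted with limma 3.58.1 in R 4.3.3 (lmFit, eBayes with an intensity trend, 2-sided, genotype as the only factor), with Benjamini-Hochberg adjustment over all probe sets, and checked on simulated data with known differences. Correlations used values with the group means removed. Figures were drawn with matplotlib 3.10.9. The dim and bright covariate was each array's mean over the dimmest of 3 equal classes of probe sets minus that over the brightest. The members, gene lists and settings were chosen with earlier results of these data known. Values by embryo were given for Htt, for the 6 members above and 3 below 0 with the smallest p, and for the member with the highest mean, Rrm2. Of each related list the 2 genes with the smallest p were named. Rpa3 and Tipin, next by p in the machinery list, were added after their values had been seen. Named pairs were the 3 with the highest and the 1 with the lowest r. The related and cell lists were recounted with centred arrays and without wild type 1 and 2 after their values had been seen. Replicate numbers were not used as pairs in the main fit, since the labels name no pairing.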

Additional observations from a re-analysis of the deposited data

Results flagged for a closer look

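Of 68 sets of 6 values (34 members in each genotype), 5 had 1 embryo far from the rest by Dixon's ratio, and chance marks about 1 in 20. In homozygous embryos, Pola1 was highest in homozygous 6, at 10.88 with the next at 10.80, Ung in homozygous 3, at 9.75 with the next at 9.64, and Uhrf1 in homozygous 4, at 11.23 with the next at 11.17. In wild type, Rfc4 was highest in wild type 2, at 10.59 with the next at 10.46, and Tk1 was lowest in wild type 5, at 9.41 with the next at 9.49. The 5 fell on 5 different embryos.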

How the results depend on the processing

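Of the 6 summary values, the count of members higher at an unadjusted p under 0.05 stayed between 7 and 10 in all 24 other settings. The share of all genes higher ran from 3.31% with centred arrays to 12.5% without homozygous 1. The count past an adjusted p of 0.05, 0 as reported, was 2 with only the brighter probe sets or only those with 1 gene, which test fewer probe sets, 3 with array weights and 2 without wild type 1 and 2 together. Calls over the whole table rose in the same settings. They went from 124 probe sets as reported to 255 with only the brighter ones and 145 with only those with 1 gene. With array weights they were 414, and without wild type 1 and 2 together 582. The count lower at an unadjusted p under 0.05, 0 as reported, was 5 with centred arrays, 1 with quantile normalization, cyclic loess or array weights, and 2 with the dim and bright covariate or without wild type 1 and 2 together. Over all genes the share lower was 5.93% as reported, 6.46% with array weights, 4.88% with the dim and bright covariate and 6.19% without wild type 1 and 2. It was 8.64% with quantile normalization, 8.69% with cyclic loess and 13.5% with centred arrays, so 5 of 34 (14.7%) with centred arrays is near the share of all genes. The cause was not tested. The median difference of 0.03 turned to -0.01 with centred arrays, a shift that centring makes by construction, and relative to all genes, a setting added after seeing the data, it was 0.01. The 3 members without overlap became 0 with centred arrays, a setting for which the share over all genes is not given here. The median r of 0.15 was 0.09 with centred arrays, 0.21 after quantile normalization, 0.17 after cyclic loess, 0.11 in wild type alone, 0.23 in homozygous embryos alone and 0.17 with the level of Eif2s3 removed, the last chosen after seeing the data. For these settings the median r over all gene pairs is not given here. With 1 array left out, the ranges were 0 to 0 members past the adjusted threshold, 7 to 10 higher, 0 to 1 lower, 3 to 4 without overlap, a median difference of 0.02 to 0.04 and a median r of 0.11 to 0.20. Calls over the whole table then ran from 4 to 200 probe sets. In all, 9 of the 34 members changed sign in at least 1 of the 24 settings (Ccne2, Cdc6, Gins3, Mcm7, Pcna, Rfc3, Rpa2, Rrm1 and Rrm2), from differences of 0.05 or less in size. Of those with values by embryo, Rrm2 reversed, to -0.01 with centred arrays, -0.0029 with the dim and bright covariate and -0.002 without wild type 1 and 2. As a check of pairing, same-numbered embryos correlated between -0.08 and 0.26, and 2 of 6 wild-type embryos correlated best with their own number; with the replicate block 10 members were higher and 0 lower, 0 passed the adjusted threshold, and 18 probe sets did in place of 124.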

Other observations

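Eif2s3, an X-linked gene that was used as a covariate, fell into separate levels that crossed the genotypes: 3 wild-type and 2 homozygous embryos read between 12.51 and 12.54, and the others between 12.70 and 12.90. With its level in the fit, the difference of Pola1, also X-linked, was 0.08 with an unadjusted p of 0.00970, in place of 0.07 and 0.0449 without it. The other 8 members at an unadjusted p under 0.05 kept that place with it.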
